A study of Homo sapiens with 18 samples.

Results

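The genes described here encode 6 receptor tyrosine kinases: EGFR, ERBB2, ERBB3, MET, AXL and FGFR1. Each locus was taken as a fixed window of the hg19 genome, and every peak summit inside a window was counted as a member. The windows were chr7:55060000-55290000 for EGFR, chr17:37835000-37890000 for ERBB2, chr12:56465000-56505000 for ERBB3, chr7:116290000-116445000 for MET, chr19:41715000-41775000 for AXL and chr8:38260000-38340000 for FGFR1. Together they cover 620 kb and held 776 of the 947675 summits in the 13 peak lists, or 0.0819%. Of these, 347 lay in the EGFR window.

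The lists come from chromatin immunoprecipitation and sequencing of H3K27ac, a mark of active promoters and enhancers, H3K4me1, found at enhancers and promoter flanks, and H3K4me3, a promoter mark. The cells were human lung adenocarcinoma lines in 4 conditions. These were H2087-LCC without treatment (LCC), H2087-LCC exposed to 100 nM TGF-β1 for 4 days (TGFb), the line H2087-LCC-SO1 (SO1) and H2030, a separate line. The medium given in the labels for both H2087 lines contained 1 ng/mL epidermal growth factor, a ligand of EGFR, 20 µg/mL insulin and 50 nM hydrocortisone, with sodium selenite, transferrin, albumin, pyruvate and HEPES, so LCC, TGFb and SO1 share these additions. The medium listed for H2030 names none of them, so line and medium cannot be told apart in the H2030 comparison. The labels do not say how LCC or SO1 was derived. H3K27ac in LCC had 2 biological replicates, and every other combination of condition and mark was a single library. No test across conditions was therefore made, and no p-value is given. The sources used here hold no hg19 gene annotation, so the labelled tissue was not checked against its marker genes.

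Each summit carries the score of its peak, read as the −log10 of a p or q value (the files do not say which), which grows with sequencing depth as well as with enrichment. The median H3K27ac score was 12.6 and 13.5 in the LCC replicates, 20.9 in TGFb, 30.1 in SO1 and 15.5 in H2030. Many scores are therefore given with the percentage of their own list that lies lower. Where this percentage is missing, libraries are compared by score only. Differences between libraries are descriptions. A lower signal because fewer cells carry a mark, and one because each cell carries less of it, cannot be told apart in bulk samples.

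Receptor tyrosine kinases span the cell membrane, bind growth factors outside the cell and phosphorylate tyrosines inside it, which switches on the RAS-MAPK and PI3K pathways. EGFR, ERBB2 and ERBB3 are members of one family and pair with each other: EGFR binds epidermal growth factor and related ligands, ERBB2 has no known ligand and serves as the preferred partner, and ERBB3 binds neuregulins but has little kinase activity of its own. MET is the receptor of hepatocyte growth factor, AXL that of GAS6, and FGFR1 that of fibroblast growth factors. In lung adenocarcinoma EGFR is a frequent driver, and MET and AXL are known for their part in resistance to EGFR inhibitors and in cell migration.

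RefSeq promoter sequences (GRCh38.p14) were found for 4 of the 6 genes. No entry was found for ERBB3 and FGFR1. The 250 bases before the listed starts of EGFR, MET and AXL are shown, and the ERBB2 sequence is described below only. EGFR and AXL each have 2 listed starts, and strong or weak H3K4me3 summits lay at about the same spacing in these cells. Capitals mark the GC box GGGCGG bound by SP1-type factors, the AP-1 motif TGANTCA and the SMAD box CAGAC, searched on both strands, with no overlapping matches. All 5 sequences are on the plus strand and run 5′ to 3′. They lie at chr7:55018767-55019016 and chr7:55109589-55109838 (EGFR), chr7:116671946-116672195 (MET), and chr19:41218973-41219222 and chr19:41226505-41226754 (AXL) of GRCh38.p14.
EGFR, start 1: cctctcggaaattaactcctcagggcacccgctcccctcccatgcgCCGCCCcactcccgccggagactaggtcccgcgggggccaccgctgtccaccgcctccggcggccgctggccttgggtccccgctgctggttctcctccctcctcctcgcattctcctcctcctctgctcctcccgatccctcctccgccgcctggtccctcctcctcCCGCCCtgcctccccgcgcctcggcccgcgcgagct
EGFR, start 2: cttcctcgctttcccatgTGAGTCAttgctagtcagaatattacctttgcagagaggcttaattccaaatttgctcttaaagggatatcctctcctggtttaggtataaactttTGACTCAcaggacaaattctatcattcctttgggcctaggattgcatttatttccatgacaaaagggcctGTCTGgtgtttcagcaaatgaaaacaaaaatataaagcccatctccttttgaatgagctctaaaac
MET: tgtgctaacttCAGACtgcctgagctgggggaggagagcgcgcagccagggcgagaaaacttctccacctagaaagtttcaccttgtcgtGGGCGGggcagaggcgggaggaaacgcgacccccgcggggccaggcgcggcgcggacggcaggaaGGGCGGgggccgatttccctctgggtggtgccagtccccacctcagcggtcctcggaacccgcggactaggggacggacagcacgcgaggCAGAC
AXL, start 1: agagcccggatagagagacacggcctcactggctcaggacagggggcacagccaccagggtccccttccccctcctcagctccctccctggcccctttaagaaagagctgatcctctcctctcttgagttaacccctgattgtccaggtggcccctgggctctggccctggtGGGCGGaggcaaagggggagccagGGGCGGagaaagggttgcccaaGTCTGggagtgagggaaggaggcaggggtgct
AXL, start 2: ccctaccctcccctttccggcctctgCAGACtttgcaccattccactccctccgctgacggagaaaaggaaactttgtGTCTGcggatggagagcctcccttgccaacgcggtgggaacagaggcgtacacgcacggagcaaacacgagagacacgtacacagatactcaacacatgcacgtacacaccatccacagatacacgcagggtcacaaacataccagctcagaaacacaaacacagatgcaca

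The sequence before the first EGFR start had a GC content of 73.6%, 25 CpG dinucleotides and 2 GC boxes, against medians of 58% and 11 over 35116 promoters, and lacked the AP-1 motif. That before the second start, inside the gene, had a GC content of 38.8%, 1 CpG, 2 AP-1 motifs, 1 SMAD box and no GC box. The ERBB2 sequence, which is not shown, had a GC content of 65.6%, 23 CpG, 1 AP-1 motif and no GC box or SMAD box. At least 1 AP-1 motif was present in 6.57% of all promoters, and 2 or more in 0.402%. MET held 2 GC boxes and 2 SMAD boxes, the first AXL start 2 GC boxes and 1 SMAD box, and the second AXL start 2 SMAD boxes. A GC box was present in 42.6% of all promoters and a SMAD box in 38%. The 2 EGFR starts lie 90.8 kb apart on GRCh38.p14, and on hg19 a weak H3K4me3 site lay 90.1 kb beyond the strong promoter summit of LCC. For AXL the spacings were 7.53 kb between the starts and 7.13 kb between the summits. Only spacings were set side by side, and no position was converted between builds.

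Summits were denser in the 6 windows than over the chromosomes as a whole. H3K27ac lists held between 8.55 (SO1 and H2030) and 11.8 (LCC replicate 2) summits per 100 kb in the windows, against 1.67 to 2.24 over chromosomes 1 to 22 and X. H3K4me1 held 11.6 in SO1 to 18.4 in H2030, against 4.22 to 4.74, and H3K4me3 3.87 in LCC to 4.84 in SO1, against 0.844 to 0.951. The windows were drawn around genes, so a higher density than that of the genome is no result about these receptors. Among H3K27ac lists EGFR held 20 (SO1) to 41 (LCC replicate 2) summits and MET 15 to 21, while AXL held 5 or 6, ERBB3 2 to 4, ERBB2 2 or 3 and FGFR1 1 to 6.

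At EGFR, all conditions shared a strong promoter and a series of acetylated sites along the following 114 kb, which lies in the long first intron of the gene from general knowledge. The promoter site, chr7:55086932-55087435, had H3K4me3 scores of 542 in LCC, 627 in TGFb, 608 in SO1 and 597 in H2030, higher than 92.4%, 97.2%, 89.7% and 98.2% of their lists. H3K27ac there scored 116 and 260 in the LCC replicates, 388 in TGFb, 268 in SO1 and 195 in H2030. By score the LCC replicates alone spanned a range that held the H2030 value, and the SO1 value lay close to replicate 2. By rank, 96% and 98.6% of the lists were lower in LCC, 98.2% in TGFb, 92.9% in SO1 and 87.3% in H2030. SO1 and H2030 thus ranked below both LCC replicates. H3K4me1 within 1 kb of the site scored 27, 36.8, 53.9 and 21.4 in LCC, TGFb, SO1 and H2030, so all 3 marks were present near this promoter in every condition.

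One intronic site of EGFR scored above the promoter site for H3K27ac in every library. At chr7:55201009-55201351, 114 kb beyond the promoter summit, H3K27ac scored 228 and 319 in LCC, 441 in TGFb, 479 in SO1 and 264 in H2030. This site stood above 99.2% of the list or more in each H2087 library and above 93.1% in H2030. At 66.7 kb, chr7:55153918-55154411 scored 191 and 272 in LCC, 371 in TGFb and 501 in SO1, the last above 99.6% of its list. H2030 had only 37.6 there, above 63.6% of its list and below all 4 H2087 libraries. At 54.8 kb, chr7:55142071-55142308 scored 90.2 and 171 in LCC, 291 in TGFb, 371 in SO1 and 143 in H2030. Around 46 kb the LCC replicates had their summits 732 bp apart, with scores of 92.9 and 156, next to 260 in TGFb, 325 in SO1 and 253 in H2030.

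These intronic sites also carried H3K4me3, at low rank. At 54.7 kb the H3K4me3 scores were 32.2 in LCC, 91.3 in TGFb, 112 in SO1 and 50.1 in H2030, above 31.5% to 45.5% of their lists. At 114 kb they were 24.5, 56.4, 83.4 and 10.4. At 66.6 kb LCC, TGFb and SO1 scored 20.2, 25.2 and 53, and the nearest H2030 summit lay 11791 bp away. In each window list of EGFR, only the promoter summit reached the median H3K4me3 score of its library.

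A site at about the spacing of the second EGFR start lay near 90 kb beyond the promoter. LCC summits stood at chr7:55178257-55178485 with 72.1 and 131, and TGFb and SO1 summits at chr7:55177560-55177653 with 158 and 229, 697 bp and 604 bp from the LCC site. H2030 had 19.4 at chr7:55177057. H3K4me3 at 90.1 kb scored 8.57 in LCC, 17.7 in TGFb and 77 in SO1, and was without a summit in H2030. By the 500 bp rule the LCC site is lost and the other gained, yet every H3K27ac library had a summit within 1200 bp of the LCC site. For H3K4me3 presence did differ, as the nearest H2030 summit lay 23432 bp away.

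**Figure D1:**
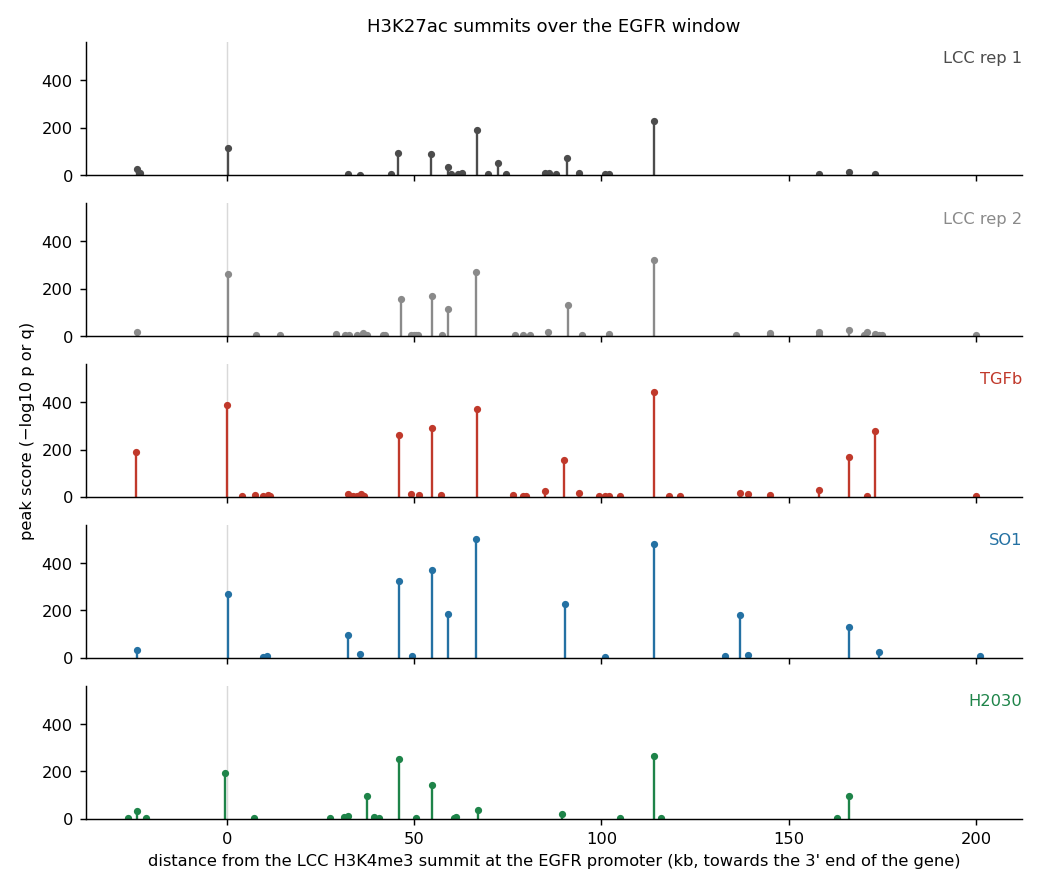
H3K27ac summits of the EGFR window in 5 libraries. The x axis is the distance in kb from the LCC H3K4me3 summit at the promoter, towards the 3′ end of the gene, and each stem is a summit whose height is its score (−log10 p or q). Summits at 0, about 46, 54.8, 66.7 and 114 kb recur in all libraries, TGFb alone is high at 173 kb (278), and SO1 alone is high at 137 kb (180).

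Some EGFR sites were strong in 1 condition. At 173 kb, chr7:55260140-55261258, H3K27ac scored 278 in TGFb, above 93.4% of its list, but 5.12 and 9.87 in the LCC replicates and 26.6 in SO1, and the nearest H2030 summit lay 6266 bp away. H3K4me1 within 1 kb scored 82.8 in TGFb and 92.2 in SO1 and was without a summit in LCC and H2030. At 137 kb, chr7:55224408-55224789, SO1 scored 180, above 85.5% of its list, and TGFb 15.9. The nearest LCC summits lay 20468 bp away in replicate 1 and 727 bp away in replicate 2, and the nearest H2030 summit 21224 bp. H3K4me1 was present there in all conditions, with 4.26 in LCC, 10.2 in TGFb, 75.9 in SO1 and 6.69 in H2030. SO1 was also high at 32.5 kb, with 95.7, where the other libraries had between 3.3 and 13.7. At 37.5 kb H2030 had 97.4 and an H3K4me1 score of 56.9, next to 6.09 for H3K27ac in LCC replicate 2 and no summit at the site in replicate 1, TGFb or SO1.

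Further sites separated the conditions by score or by absence. Upstream of the promoter, at chr7:55063350-55063472, TGFb scored 191 for H3K27ac against 27.2 and 18.7 in LCC, 34.3 in SO1 and 32.4 in H2030. At 166 kb TGFb had 169, SO1 132 and H2030 94.9, all above the 14.1 and 25.2 of LCC. At 59.2 kb, chr7:55146583-55146627, LCC scored 33.1 and 114 and SO1 185, while TGFb and H2030 had no summit at the site and their nearest ones lay 1826 bp and 1557 bp away. SO1 had an H3K4me3 summit of 28.7 there, with the nearest LCC summit 4706 bp away. TGFb alone had an H3K4me1 summit within 1 kb of the site, with a score of 35.3.

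The EGFR introns held one of the H3K27ac regions with the most summits in the LCC lists. Joining neighbouring summits at the wide distance commonly used to stitch enhancers gave a region of 21 summits over 81.7 kb in replicate 1, rank 7 of 24730 by number of summits, and one of 25 over 84.8 kb in replicate 2, rank 16 of 27848. TGFb had 25 summits over 88.6 kb, rank 17 of 30704. In SO1 the largest region held 7 summits over 34.2 kb (rank 418) and in H2030 12 over 39.4 kb (rank 272). The SO1 list nevertheless had 11 EGFR summits at or above its median score, as had TGFb, against 10 and 12 in the LCC replicates and 9 in H2030. When only summits within 5 kb were joined, the largest region held 9 and 16 summits in LCC, 6 in TGFb and 3 each in SO1 and H2030.

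ERBB2 had 3 H3K4me3 sites in its window, and the middle one set the conditions apart. On GRCh38 its neighbours are PGAP3 before and MIEN1 after the gene, and from general knowledge of the locus the outer sites lie at the starts of these neighbours, the first being shared with a longer ERBB2 transcript, and the middle site lies at the main ERBB2 start. This placing was not checked against an hg19 annotation. The middle site, chr17:37856442-37856506, scored 269 in LCC, 320 in TGFb, 44.3 in SO1 and 553 in H2030 for H3K4me3, which were above 55%, 58.7%, 36% and 91.8% of their lists. SO1 was lowest and H2030 highest. H3K27ac within 1 kb was without a summit in both LCC replicates and SO1, at 4.72 in TGFb and at 104 in H2030. The nearest H3K27ac summits at the middle site lay 11903 bp and 12243 bp away in the LCC replicates and 12234 bp away in SO1. H3K4me1 within 1 kb of the acetylated site followed with 5.83, 12.8, 6.65 and 37.

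The outer sites were marked alike in presence. The first, chr17:37844585-37844642, had H3K4me3 scores of 365, 490, 518 and 486 in LCC, TGFb, SO1 and H2030, and the last, chr17:37886602-37886637, had 409, 439, 484 and 443. By rank the conditions were close at both outer sites, with 62.3%, 71.7%, 71.2% and 72.7% of the lists lower at the first and 67.1%, 66.1%, 67% and 63.8% at the last. At the middle site SO1 was lowest by score and by rank. H3K27ac at the first scored 33.8 and 48.5 in LCC, 163 in TGFb, 71.2 in SO1 and 268 in H2030. At the last it scored 44.4 and 92.8, 128, 107 and 223. In the same order, 74.8% and 74.8%, 84%, 66.6% and 93.4% of the lists were lower at the first. At the last they were 80.6% and 85.7%, 79.7%, 74.8% and 89.8%. SO1 thus scored above both LCC replicates but ranked below them at both sites, as did TGFb at the last.

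ERBB3 showed the same 2 H3K4me3 sites in all conditions. The first, chr12:56473336-56473377, lies at the start of the window's receptor gene from general knowledge, and the second, chr12:56498555-56498631, at its neighbour PA2G4, a gene for a growth-related RNA-binding protein. The first scored 401 in LCC, 381 in TGFb, 459 in SO1 and 481 in H2030 for H3K4me3, between 62% and 71.7% of the lists being lower. H3K27ac there scored 33.6 and 122 in the LCC replicates, 70.7 in TGFb, 77.7 in SO1 and 201 in H2030. By score TGFb and SO1 fell between the replicates, and H2030 lay above both. By rank, 74.7% and 90% of the lists were lower in LCC, 70.3% in TGFb, 68.3% in SO1 and 87.8% in H2030. TGFb and SO1 thus ranked below both replicates, and H2030 between them. The PA2G4 site scored 509 to 597 for H3K4me3. Beyond the promoters, an H3K4me1 site at chr12:56480774-56481043, 7.55 kb from the first, had scores of 59.2 in LCC, 22.5 in TGFb and 9.53 in SO1, with no summit in H2030. LCC had the highest score of the 4 conditions there.

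MET had 2 strong H3K4me3 sites and an acetylated stretch between and behind them. At the promoter, chr7:116312652-116312697, H3K4me3 scored 446 in LCC, 566 in TGFb, 653 in SO1 and 543 in H2030, and SO1 stood above 96.8% of its list. H3K27ac there scored 85.3 and 156 in LCC, 311 in TGFb, 346 in SO1 and 295 in H2030. All 3 other conditions were above both LCC replicates in score. By rank within the list the values were close, with 92.1% and 93.6% lower in LCC, 95.2% in TGFb, 96.6% in SO1 and 95.1% in H2030.

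The second strong H3K4me3 site of MET, chr7:116364223-116364333, lay 51.6 kb inside the gene. Its H3K4me3 scores were 272 in LCC, 468 in TGFb, 473 in SO1 and 386 in H2030, above 55.2% to 69.1% of the lists. H3K27ac scored 41.2 and 64.3 in LCC, 225 in TGFb, 199 in SO1 and 274 in H2030. The site was marked by H3K4me3 and H3K27ac in all libraries, at lower scores in LCC. As background, a LINE-1 element within MET is known to carry a promoter that starts a shorter MET transcript in tumour cells. Whether this site is that promoter was not tested.

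**Figure D2:**
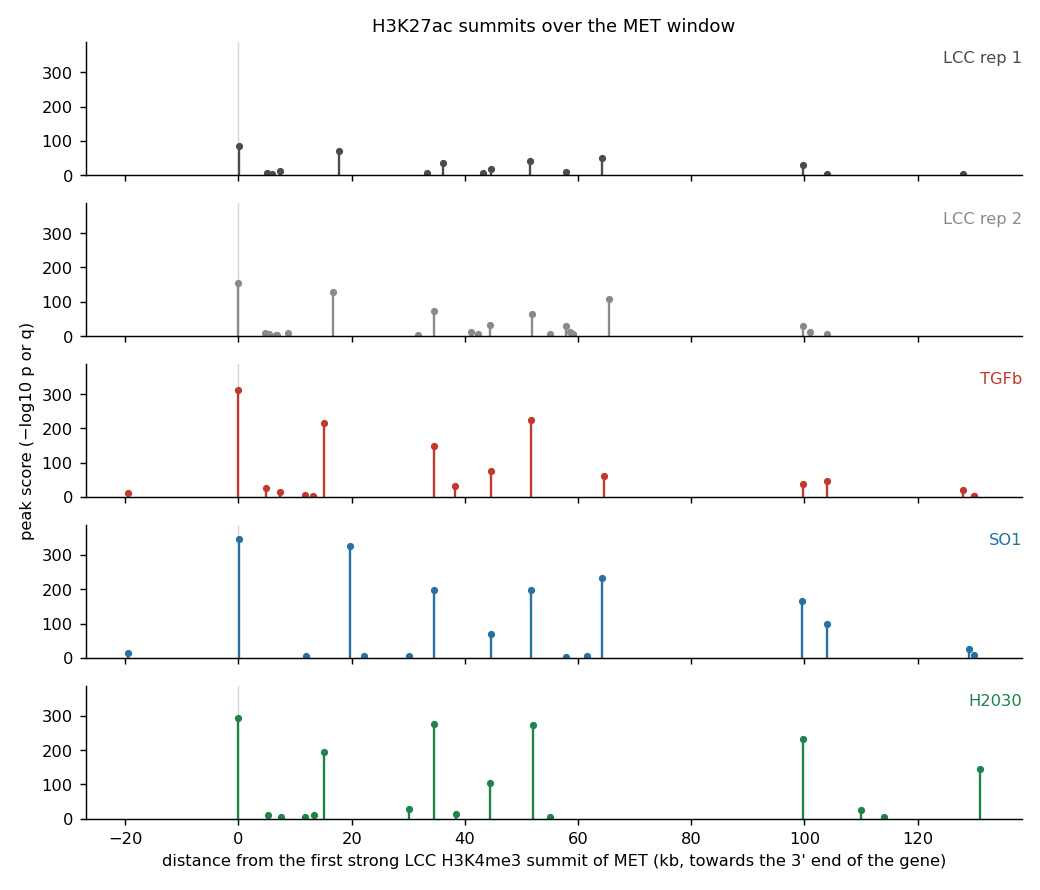
H3K27ac summits of the MET window in 5 libraries. The x axis is the distance in kb from the LCC H3K4me3 summit at the promoter, towards the 3′ end of the gene, and stem height is the score (−log10 p or q). The strongest summit between 15 and 20 kb stands at a different place in LCC, SO1, and TGFb or H2030, and only H2030 is high at 131 kb (145).

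Between 15.2 and 19.7 kb behind the MET promoter each library had a strong summit, but at different places. It stood at 17.8 kb with 69.2 in LCC replicate 1, at 16.7 kb with 128 in replicate 2, at 15.2 kb with 216 in TGFb and 196 in H2030, and at 19.7 kb with 327 in SO1. The SO1 summit lay above 95.9% of its list and 1895 bp and 3028 bp from those of LCC. The LCC replicates themselves differed by 1133 bp, so a difference of that size in position lies within the replicate error. Next, at 34.6 kb, H3K27ac scored 73.5 in LCC replicate 2, 149 in TGFb, 199 in SO1 and 276 in H2030, and replicate 1 had its nearest summit 1154 bp away. H2030 had an H3K4me3 score of 118 within 1 kb of that site, against 12.3, 23.6 and 22.4 in LCC, TGFb and SO1.

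In the distal part of MET, scores differed more between conditions. At 99.7 kb, chr7:116412254-116412501, LCC scored 30 and 28.7 and TGFb 37.7, while SO1 scored 165 and H2030 232, above 83.5% and 90.6% of their lists. At 104 kb SO1 had 97.6, TGFb 46.5 and LCC replicate 1 4.35, with the replicate 2 summit 563 bp away. At 64.4 kb SO1 had 232, TGFb 62.2 and the LCC replicates 49.2 and, 941 bp away, 108, whereas the nearest H2030 summit lay 9320 bp away. At chr7:116443719, 131 kb from the promoter and towards the neighbour CAPZA2, H2030 had 145 for H3K27ac and 57.1 for H3K4me3 at chr7:116444126. LCC had no H3K4me3 summit closer than 58770 bp to the latter. Weak H3K27ac summits of TGFb and SO1 stood 633 bp and 891 bp from the H2030 one, with scores of 2.98 and 7.14.

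At AXL, 2 H3K4me3 sites lay at about the spacing of the listed starts, and H2030 differed between them. At the first, chr19:41725316-41725381, H3K4me3 scored 304 in LCC, 401 in TGFb, 476 in SO1 and 586 in H2030, the last above 97.1% of its list. H3K27ac scored 24.3 and 46.5 in LCC, 136 in TGFb and 108 in SO1, and H2030, highest in H3K4me3, had its nearest H3K27ac summit 2756 bp from the acetylated site. At the second, chr19:41732427-41732481, H3K4me3 scored 129, 105, 127 and 325. H3K27ac there scored 56.2 and 119 in LCC, 226 in TGFb, 189 in SO1 and 355 in H2030, the last above 97.9% of its list. In each condition the second site thus had the higher H3K27ac and the lower H3K4me3 score of the pair. Whether it is the second listed start was not tested, as only spacings were compared.

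A further AXL site, 34.4 kb from the first and near the far end of the gene, had H3K4me3 and H3K27ac summits in LCC and TGFb but not in SO1 or H2030. H3K4me3 at chr19:41759745-41759748 had scores of 94.2 (LCC) and 94.3 (TGFb). In SO1 the closest H3K4me3 summit was 9492 bp off, in H2030 10805 bp. H3K27ac followed the same division at low scores, with 4.68 and 9.79 in LCC and 22.9 in TGFb, and its nearest summits in SO1 and H2030 lay 8272 bp and 6931 bp from the site. H3K4me1 within 1 kb of it scored 20.3 in LCC and 9.08 in TGFb and had no summit in SO1 or H2030. The site at chr19:41770544-41770706 for H3K4me3 (449 to 602) and chr19:41770520-41770703 for H3K27ac (190 to 473) lies at the neighbour HNRNPUL1 from general knowledge. It had the highest H3K27ac score of the window in every library and the highest H3K4me3 score in all but H2030, where the first AXL site was higher. Close by, chr19:41769185-41769240 had H3K4me3 scores of 347 in TGFb and 422 in SO1. LCC and H2030 had no H3K4me3 summit there, the nearest lying 1304 bp and 1313 bp away. H3K27ac at chr19:41769191-41769395 scored 63.3 and 72.2 in LCC, 163 in TGFb, 161 in SO1 and 315 in H2030.

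FGFR1, which is read towards lower coordinates, had the weakest promoter marking of the 6 genes in LCC. At its promoter site, chr8:38325863-38325915, H3K4me3 scored 79.7 in LCC and 108 in TGFb, both below the median of their lists, but 367 in SO1 and 476 in H2030, above 58.8% and 70.2% of theirs. The nearest H3K27ac summits lay 63355 bp and 63347 bp away in the LCC replicates and 59414 bp away in TGFb. Within 1 kb, SO1 had an H3K27ac score of 2.58, above only 1.28% of its list, and H2030 one of 25.5, above 58.2%. SO1 had a further H3K27ac summit of 37.6 at chr8:38323269, where H3K4me1 scored 18.8 in SO1, 3.86 in LCC and 3.89 in TGFb. Both conditions with the higher H3K4me3 thus had H3K27ac summits near the promoter, and both with the lower had none. The SO1 summit within 1 kb was close to the lowest scores of its list. H3K4me3 had a single library in every condition, LCC included, and H3K27ac a single library in each condition other than LCC.

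The other acetylated stretch of the FGFR1 window lay at its opposite end, beyond the 3′ end of the gene from general knowledge. H3K27ac scored 11.7 and 27.1 in LCC and 170 in TGFb at chr8:38262508-38262596, and 162 in SO1 and 55.9 in H2030 at chr8:38263175-38263261. The SO1 summit lay 579 bp and the H2030 summit 665 bp from the first site, so that the 500 bp rule places them in another site. H3K4me3 there scored 15.5 in LCC, 60.7 in TGFb, 88.2 in SO1 and 6.69 in H2030. TGFb and SO1 were above LCC in both marks at this end, whereas only SO1 of these had H3K27ac near the promoter.

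**Figure D3:**
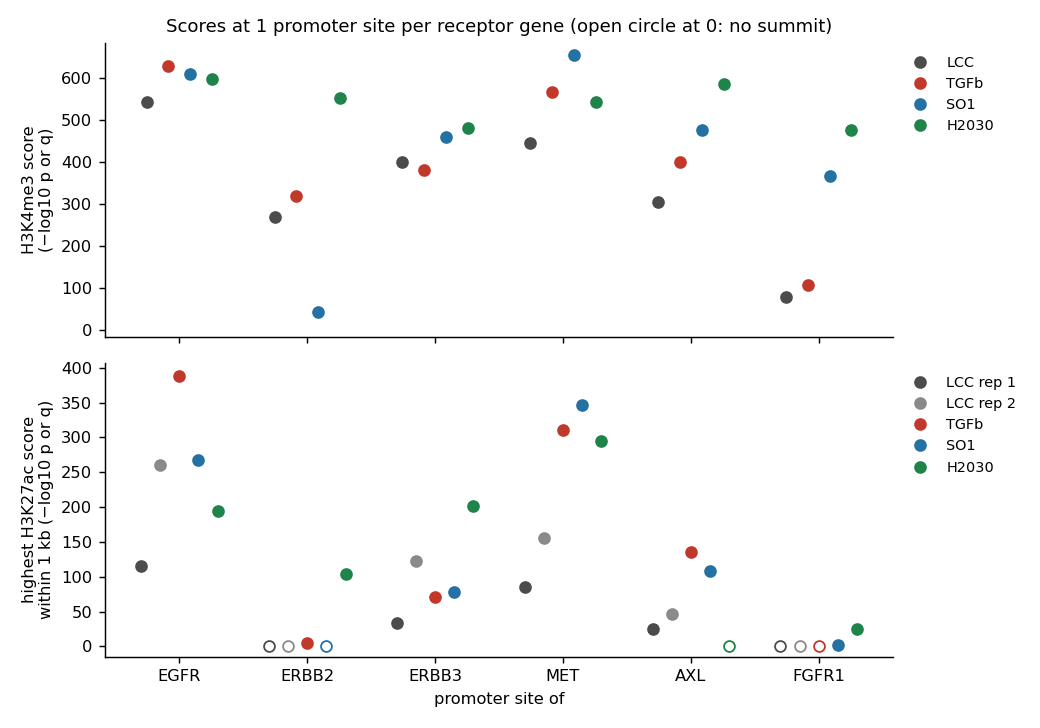
Scores (−log10 p or q) at the promoter site of each receptor gene, H3K4me3 in the upper and the highest H3K27ac summit within 1 kb in the lower plot, with 1 point per library and an open circle at 0 where a library had no summit. ERBB2 is lowest in SO1 for H3K4me3 (44.3), FGFR1 is low in LCC and TGFb (79.7 and 108), and H3K27ac summits are missing at ERBB2, AXL or FGFR1 in some libraries. Scores of different libraries also reflect their depth.

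Over the 6 windows, sites were formed by joining summits of a mark that lay at most 500 bp apart. The LCC replicates, the only measure of experimental error, shared 31 of the 53 replicate 1 sites, or 58.5% (Wilson 95% interval 45.1 to 70.7), and 31 of the 68 replicate 2 sites, or 45.6% (34.3 to 57.3). The background, the share of all sites without a counterpart, was 27.7% for replicate 1 and 41.9% for replicate 2. The replicates thus shared fewer sites here than the 72.3% and 58.1% of all sites. Counting any summit within 2500 bp, they shared 90.6% and 77.9% in the windows, and the share over all sites was not worked out. EGFR held 14 of the shared sites, with 27 in replicate 1 and 38 in replicate 2, and MET 7, with 14 and 19. All replicate 1 sites at ERBB2 (2) and FGFR1 (1), 5 of 6 at AXL and 2 of 3 at ERBB3 were found in replicate 2. Intervals cover counting error only, and sites in a window are not independent.

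Among 31 H3K27ac sites marked in both LCC replicates, TGFb lacked 4, SO1 8 and H2030 11. The background over all sites was 18.3% lost in TGFb, 25.7% in SO1 and 52.8% in H2030. The kept shares were 87.1% (71.1 to 94.9), 74.2% (56.8 to 86.3) and 64.5% (46.9 to 78.9). These shares rest on requiring both LCC replicates. Without LCC replicate 1 they were 55.9%, 36.8% and 38.2%, and without LCC replicate 2 64.2%, 54.7% and 41.5%. Shares over all sites were not worked out for these settings, so whether such a fall is particular to the windows is unknown. Of the condition's own sites, 21 of 66 in TGFb, 21 of 52 in SO1 and 25 of 53 in H2030 were without an LCC summit of either replicate, beside backgrounds of 34.5%, 31.2% and 54.5%. The ERBB2 and ERBB3 windows, with only 2 LCC H3K27ac sites each, lost none in any of the 3 conditions. From general knowledge both ERBB2 sites lie at starts of neighbouring genes, as does the PA2G4 site in the ERBB3 window. The middle ERBB2 site had no H3K27ac summit in LCC to lose. Some of these calls had another summit nearby, and whether that was the same site at a shifted position was not tested. When a site counted as absent only with no summit within 2500 bp, TGFb lacked 1, SO1 5 and H2030 7 (backgrounds 7.3%, 14.3% and 41.6%). Gained were then 12, 11 and 12 (backgrounds 22.4%, 20.6% and 40.5%). By the 500 bp rule, the H2030 share of lost sites lay below its background, but the genome's kept share of 47.2% lay inside the window interval. With the 2500 bp distance the 7 of 31 lost in H2030 also lay below the background of 41.6%, and no interval is given for that setting. At EGFR, TGFb lacked none of the 14 LCC sites with this distance.

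For H3K4me3, 2 of 24 LCC sites were lost in TGFb, 3 in SO1 and 6 in H2030, beside backgrounds of 9.18%, 14.4% and 36.5%. Gained were 4 of 26 sites in TGFb, 9 of 30 in SO1 and 10 of 28 in H2030, beside 17.9%, 22.1% and 35.5%. With the 2500 bp distance 0, 1 and 5 of the 24 were lost (backgrounds 5.06%, 9.33% and 29.7%). Gained were then 2, 6 and 7 (backgrounds 13.3%, 17.6% and 29.4%). The SO1 loss was the AXL site at 34.4 kb, and H2030 lost it too, together with 4 weak EGFR sites. No strong promoter site of the 6 receptors was lost in any condition. Of the gained sites outside this distance, the highest were the H2030 sites of MET at 44 kb (73.6) and 131 kb (57.1) and the SO1 site of EGFR at 59.3 kb (28.7).

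For H3K4me1, TGFb lost 28, SO1 40 and H2030 50 of 84 LCC sites, beside backgrounds of 35.1%, 43.6% and 62.5%. Gained were 36 of 92 sites in TGFb, 29 of 73 in SO1 and 78 of 112 in H2030, beside 35.5%, 37.5% and 59.8%. With the 2500 bp distance 9, 21 and 17 of the 84 were lost (backgrounds 15%, 24.1% and 43.3%). Gained were then 14, 10 and 46 (backgrounds 14.9%, 18.2% and 36.7%). For H2030 the 17 of 84 lost lay below the background, and no interval is given for this setting. By the 500 bp rule, most H2030 gains lay in the longest windows, with 37 of 47 sites gained at EGFR and 23 of 30 at MET. FGFR1 gained 7 of 9, ERBB2 5 of 11, AXL 4 of 9 and ERBB3 2 of 6. For H2030, 30.4% of its own sites (22.6 to 39.4) were found in LCC, below the 40.2% of all its sites. With the 2500 bp distance 58.9% were found, and the 46 of 112 gained sites lay closer to their background of 36.7%. By the 500 bp rule, the shares over all sites in TGFb and SO1 lay inside the intervals of the windows, for kept sites and for the condition's own.

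**Figure D4:**
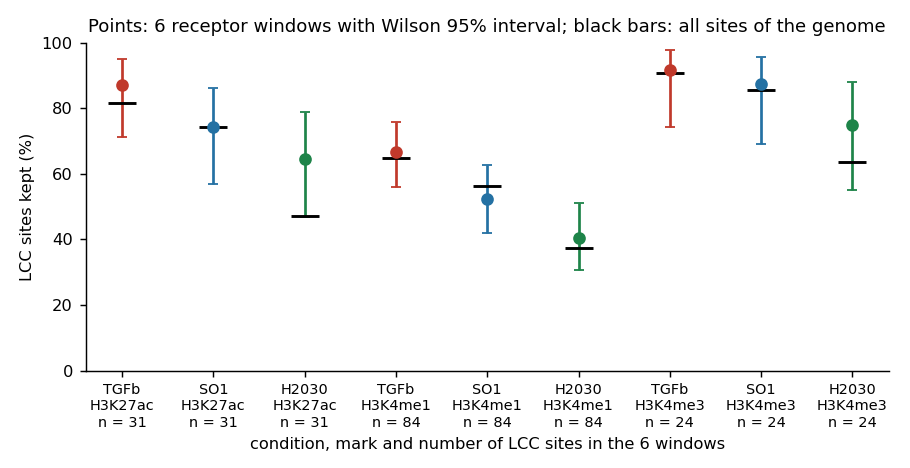
Share of LCC sites of the 6 receptor windows (%) that had a site in TGFb, SO1 or H2030, per mark. Points are the windows with their Wilson 95% interval and black bars the share over all sites of the genome. The bar lies within the interval for each comparison drawn, just above its lower end for H2030 H3K27ac (47.2% against a lower bound of 46.9%).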

How the data were processed

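H3K27ac, H3K4me1 and H3K4me3 were profiled in 4 conditions, and 13 deposited peak-summit lists were read. The authors deposited 1 score per summit, here taken as −log10 of a p or q value from its lowest value in each list, which lies at or just above the 1.30103 that corresponds to 0.05. Reads were aligned to hg19, and Bowtie2, SAMtools and deepTools are named per the submitters' processing notes; the peak caller is not given in the sources used here. Input libraries were not used here. Read depth is unknown, and 29 to 238 summits per list on other chromosomes were left out. Summits of a mark were joined within 500 bp into sites. LCC H3K27ac marked a site where both replicates had a summit. A site was lost where a condition had none, and gained where no LCC library had one. Neighbouring marks were sought within 1 kb. Distances are from the LCC H3K4me3 summit at each promoter. Python 3.11.15, numpy 2.4.6, scipy 1.17.1 and matplotlib 3.10.9 were used. Only the calls of lost and gained sites were tested on simulated data, with changes planted at or beside isolated H3K4me3 summits. That test therefore does not cover windows dense in summits, such as EGFR and MET.

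The genes, windows and rules were chosen with earlier results of these data known. The rule for named sites took the highest H3K4me3 site of a window, the 3 highest H3K27ac sites of LCC and up to 3 lost and gained sites per comparison. Not every site that the rule took is described, and the rest, like weaker ones, are given as counts. The promoter sites set as origins at ERBB2, ERBB3 and AXL, and further sites named for a score in 1 condition, were chosen after their values were seen. Ligands, adaptors and feedback genes of these receptors were not analysed here for lack of hg19 gene positions.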

Additional observations from a re-analysis of the deposited data

How the results depend on the processing

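With 1 library for most conditions and marks, the results are descriptions. Read depth is unknown, so no detection limit can be given for an absent summit. No paired analysis was possible because the results come from no test and replicate numbers exist in LCC only.

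With summits joined within 250 bp, 14 of 20 shares over the windows stayed within their interval. The others were the LCC replicates (42.6% and 31.5%) and H3K4me1 kept and found in LCC for TGFb (52.9% and 48.9%) and H2030 (28.2% and 21.1%). Within 1000 bp, 12 stayed, the replicates shared 76.1% and 62.5%, H3K4me1 gave 76.9% and 74.1% for TGFb, 53.8% and 42.4% for H2030 and 72.7% found for SO1, and TGFb kept 100% of H3K4me3 sites. With scores of at least 10, 16 stayed, SO1 kept 86.4% of H3K27ac sites, the replicates shared 71% and 64.7%, and 81% of H2030 H3K4me3 sites were found in LCC. With lists of equal length, 18 stayed, 83.7% of TGFb H3K27ac sites were found in LCC, and 60% of replicate 2 sites in replicate 1.

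With absence called only beyond 2500 bp, 6 stayed. The replicates shared 90.6% and 77.9%. For H3K27ac TGFb kept 96.8%, and 81.8%, 78.8% and 77.4% of TGFb, SO1 and H2030 sites were found. H3K4me1 kept and found were 89.3% and 84.8% for TGFb, 75% and 86.3% for SO1 and 79.8% and 58.9% for H2030, and H3K4me3 kept was 100% for TGFb and 95.8% for SO1. The wider distance makes a counterpart easier to find by construction. Leaving out either LCC H3K27ac replicate, the shares kept ranged from 55.9% to 64.2% in TGFb, 36.8% to 54.7% in SO1 and 38.2% to 41.5% in H2030, since sites of a single replicate then count. The shares found in LCC ranged from 51.5% to 57.6% in TGFb, 48.1% to 55.8% in SO1 and 41.5% to 49.1% in H2030. Shares over all sites were not worked out without a replicate.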

Other observations

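Many H3K27ac summits of the receptor windows had neither H3K4 mark within 1 kb. Their share was 38.9% and 41.1% in the LCC replicates, 21.7% in TGFb, 30.2% in SO1 and 30.2% in H2030, against 12.6%, 14.8%, 11.9%, 9.53% and 18.8% of the whole lists. At EGFR the shares were 51.9%, 41.5%, 30%, 35% and 30.4%. With a distance of 2500 bp the shares over the 6 windows were 20.4%, 17.8%, 8.7%, 17% and 18.9%, against 3.83%, 4.54%, 3.8%, 3.25% and 7.9% of the whole lists. The LCC H3K27ac site 59.2 kb beyond the EGFR promoter is an example, with the nearest LCC summits of H3K4me1 and H3K4me3 at 5198 bp and 4549 bp.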
